A study of Mus musculus with 14 samples.

Results

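The cytokine receptors of Th1 cells were followed as a set of 9 genes: Il2ra, Il2rb, Il2rg, Il12rb1, Il12rb2, Il18r1, Il18rap, Il21r and Ifngr1. The members were chosen by name, and each probe set annotated to only that gene was taken, which gave 11 of the 45101 probe sets on the array, for 8 of the 9 genes. Il2rb, Il2ra and Il18rap had 2 probe sets each and Il12rb1, Il12rb2, Il18r1, Il21r and Ifngr1 had 1 each. The annotation used here assigns no probe set to Il2rg, so the gene was not analysed here.

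The cells were Th1 rep cells, CD4+ T cells of OT-II mice (transgenic for a T cell receptor, 6 to 10 weeks old) that had been sorted as naive cells, polarised toward Th1 and stimulated repeatedly with irradiated antigen-presenting cells, so that remains of those cells are possible. Before reactivation, miR-31 was targeted with the antisense inhibitor Antagomir-31 (1 µM), and the control cells were given Antagomir-SCR at the same dose. Cells were then reactivated on plate-bound antibodies to CD3 and CD28 (3 µg/ml). Both treatments shared the medium, which held IL-12 (5 ng/ml), IL-2 (10 ng/ml) and an antibody to IL-4 (10 µg/ml), so ligands of 2 of the receptors described here were added to all cultures. RNA was taken after 36 h, 48 h and 72 h for 14 arrays, namely 2 for each treatment at the first and second time and 3 for each at the third. Whether replicates were separate cultures is not given in the sources used here, so p-values measure the spread between these arrays, which may be technical.

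The oligonucleotide Antagomir-31 is directed against miR-31, whose main mature form is shown because it is the target of the treatment. It is encoded on the minus strand at chr4:88910614-88910635 (RefSeq, GRCm38.p6), and its seed, bases 2 to 8, stands in capitals:
mmu-miR-31-5p: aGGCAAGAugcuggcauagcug
None of the 9 receptor genes is on the study's list of putative miR-31 targets. The arrays do not measure mature miR-31, so the loss of miR-31 was not checked here.

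Cytokine receptors of this kind have no enzyme of their own. Ligand binding brings their chains together, Janus kinases bound to the chains phosphorylate STAT factors, and these move to the nucleus. IL-2 is read by an α chain (Il2ra, CD25), a β chain (Il2rb, CD122, shared with the IL-15 receptor) and the common γ chain (Il2rg), which also pairs with Il21r. IL-12 is read by Il12rb1, which is shared with the IL-23 receptor and binds Tyk2, and by Il12rb2, which binds Jak2 and recruits Stat4, the route to Th1 polarisation. IL-18 is read by Il18r1 and its accessory chain Il18rap, which signal through MyD88 and IRAK kinases rather than Janus kinases, and IFN-γ by Ifngr1 together with Ifngr2. Th1 cells are known for high IL-12 and IL-18 receptor expression and for a response to both cytokines together with IFN-γ secretion.

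The promoters of the receptor genes are shown because several of the genes rose together between 48 h and 72 h, and they were searched for the binding patterns of factors that act downstream of these receptors and of the T cell receptor. The RefSeq table (GRCm38.p6) held 9 promoters of 300 bases (250 before to 50 after the start) for 7 of the 9 genes. On both strands, the STAT pattern TTCNNNGAA (GAS, which reads the same on both strands in its fixed letters) was in 8.3% of the 32851 promoters of the table, the NF-kB pattern (GGGANT followed by NNCC) in 4.16%, the T-box pattern AGGTGTGA in 1.28% and the AP-1 pattern TGANTCA in 7.81%. A match was found in 4 of the 9 promoters, which are shown with it in capitals. Il18r1, at 1 of its 3 starts, holds 2 STAT patterns, Il2ra and Il21r hold 1 NF-kB pattern each, and Il12rb2 holds 1 of both kinds:
Il2ra chr2:11642542-11642841 (+): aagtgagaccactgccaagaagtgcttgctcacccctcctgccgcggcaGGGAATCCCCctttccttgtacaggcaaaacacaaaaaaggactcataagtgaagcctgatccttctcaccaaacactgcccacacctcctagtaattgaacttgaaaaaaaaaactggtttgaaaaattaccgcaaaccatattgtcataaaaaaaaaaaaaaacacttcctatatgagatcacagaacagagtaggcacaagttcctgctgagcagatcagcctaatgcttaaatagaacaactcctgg
Il12rb2 chr6:67376139-67376438 (-): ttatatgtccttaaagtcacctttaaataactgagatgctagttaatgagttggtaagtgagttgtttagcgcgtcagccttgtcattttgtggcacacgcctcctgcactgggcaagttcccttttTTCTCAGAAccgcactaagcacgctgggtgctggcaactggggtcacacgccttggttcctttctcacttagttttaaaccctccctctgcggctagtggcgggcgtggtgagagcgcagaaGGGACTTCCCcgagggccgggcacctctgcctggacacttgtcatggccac
Il18r1 chr1:40465756-40466055 (+): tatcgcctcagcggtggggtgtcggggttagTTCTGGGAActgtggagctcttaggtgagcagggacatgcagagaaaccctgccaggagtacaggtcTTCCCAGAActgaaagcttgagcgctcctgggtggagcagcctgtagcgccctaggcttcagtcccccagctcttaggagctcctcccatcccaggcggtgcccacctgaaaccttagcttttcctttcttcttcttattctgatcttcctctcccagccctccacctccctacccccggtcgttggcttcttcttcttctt
Il21r chr7:125603179-125603478 (+): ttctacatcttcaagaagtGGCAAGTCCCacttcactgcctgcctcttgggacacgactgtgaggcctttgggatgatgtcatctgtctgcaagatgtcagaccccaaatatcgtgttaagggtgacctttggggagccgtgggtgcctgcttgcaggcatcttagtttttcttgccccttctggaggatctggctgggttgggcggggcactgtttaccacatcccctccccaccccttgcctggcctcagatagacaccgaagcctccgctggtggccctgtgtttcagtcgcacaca
The patterns are in members that rose on both scales (Il2ra, Il18r1) and in members that did not (Il12rb2, Il21r), and in none of the promoters of Ifngr1, Il18rap and Il2rg. A match is a run of letters and not a measured site.

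All 11 probe sets were bright on all 14 arrays, between the 78.7th and the 98.4th percentile of an array's probe sets. All 5 T cell markers passed the filter on low values, at intensities over the 14 arrays of 4980 to 5700 for Cd3d, 2690 to 3020 for Cd3g, 3030 to 3820 for Thy1, 372 to 707 for Cd3e and 147 to 322 for Cd4. The 4 Th1 markers with a probe set passed as well, with Ifng at 8190 to 17200, Tbx21, the gene of T-bet, at 944 to 1890, Twist1 at 151 to 338 and Cxcr3 at 44.4 to 64.9. Markers of other lineages passed in part. Of the Treg list 3 of 5 passed, with Tnfrsf4 at 1320 to 2400, Capg at 1070 to 2660 and Ikzf2 at 34.2 to 102, while the defining Foxp3 (6.52 to 15.8) did not. Of the CD8 T and NK cell list 2 of 4 measured passed, Klre1 at 140 to 288 and Cd8a at 26.9 to 38, and Ncr1 (14.2 to 19.6) did not. Of 5 macrophage and monocyte markers 3 passed, Csf1r at 63.7 to 75.3, Cd14 at 48.7 to 68.4 and Lyz2 at 28.4 to 43.5, and Adgre1 (13.6 to 16.7) did not. Of 4 measured B cell markers only Cd22 passed (20.9 to 49.7), and Cd79a (12.9 to 18.5) did not. Of 5 dendritic cell markers 3 passed, Zbtb46 at 49.5 to 59.2, Siglech at 31.3 to 43.5 and Flt3 at 15.8 to 41.2, and Itgax (12.8 to 18.4) did not. Of 5 Th2 markers 2 passed, Il13 at 55.2 to 98 and Gata3 at 19 to 100, and Il4 (9.79 to 21.3) did not. Of 2 measured Th17 markers Il17a passed (34.1 to 55.3), and Ccr6 (16.8 to 34) did not. Intensities of different probe sets are not set against each other here. The arrays of one time had nearly equal medians and those of different times did not (medians of 23.43 to 23.79 at 36 h, 21.76 to 22.08 for the 48 h arrays and 27.92 to 28.42 for those of 72 h), so the values were not on one scale across times. Intensities below are the deposited RMA values on the linear scale, and differences are on the log2 scale.

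**Figure D1:**
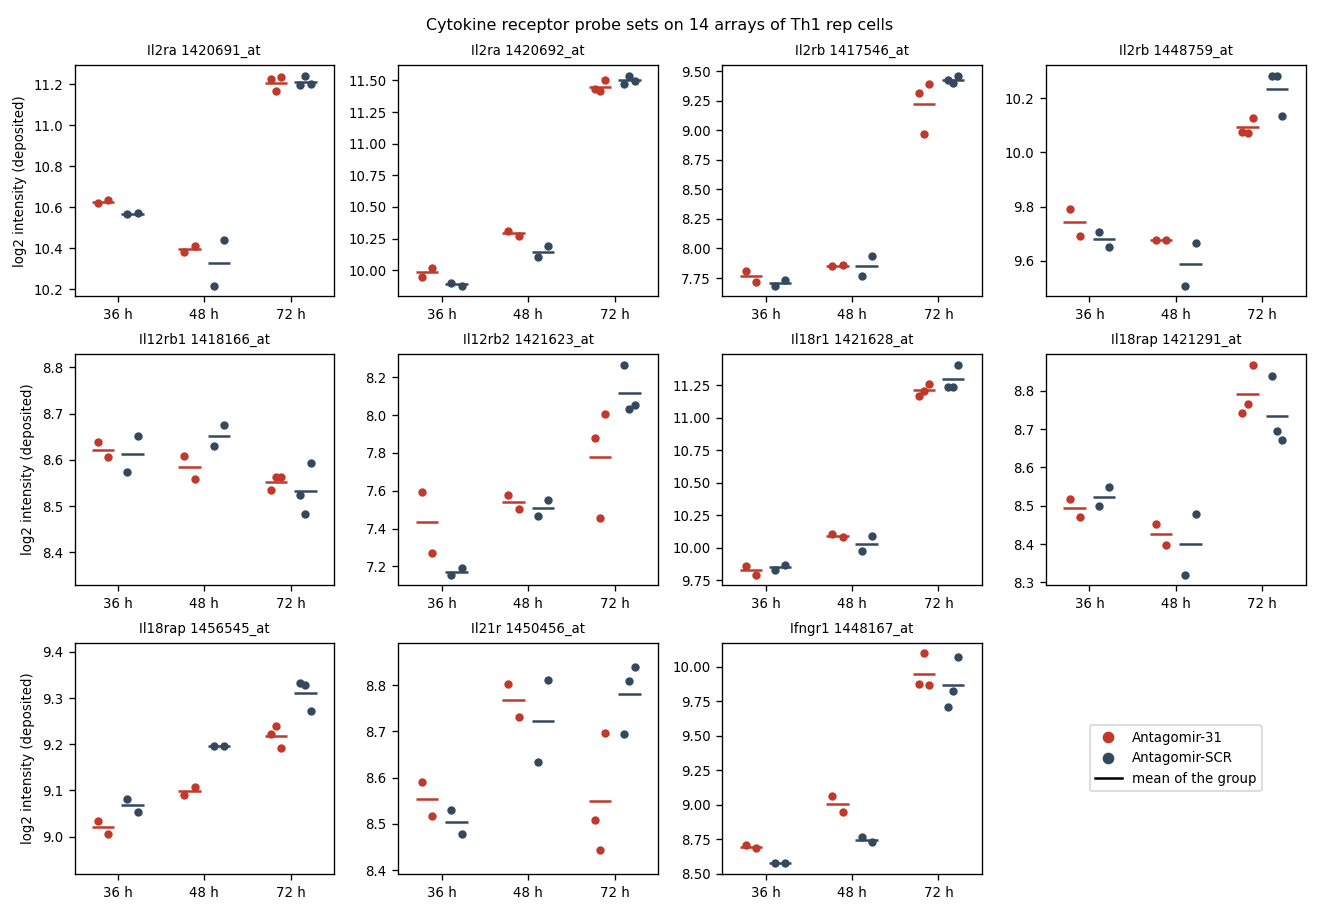
Each panel plots 1 of the 11 probe sets, with the deposited log2 intensity on the y axis (the range differs by panel) and the time on the x axis. Points are arrays, Antagomir-31 in red on the left and Antagomir-SCR in dark blue on the right of each time, and bars are group means. The time points differ more than the treatments for Il2ra, Il2rb, Il18r1 and Ifngr1, and the red points of Il2rb, Il12rb2 and Il18rap 1456545_at lie below the blue ones at 72 h.

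Antagomir-31 changed none of the 11 receptor probe sets past the threshold at 36 h, 48 h or 72 h, or on the average of the 3 times. The test was a moderated linear model (limma) of 6 groups over the 22518 brightest probe sets, and a Benjamini-Hochberg adjusted p under 0.05 over all of them was called. Over all probe sets the called share was 0% at 36 h and at 48 h, 0.289% at 72 h (65 probe sets, of which 26 were higher) and 0.00888% on the average. At an unadjusted p under 0.05 the model gave 0 of the 11 receptor probe sets at 36 h against 5.1% of all probe sets, 2 at 48 h against 5.99%, 5 at 72 h against 16.3% and 2 on the average against 8.62%. At 72 h all 5 were lower with Antagomir-31, and they belong to Il2rb (both probe sets), Il12rb2, Il18rap and Il21r. The 16.3% holds both directions. Of the 11 differences 8 were below 0 at 72 h, with a median of -0.08 beside -0.01 over all probe sets. At 36 h and 48 h 8 and 9 were above 0, with medians of 0.06 and 0.04 beside 0.00 over all probe sets at both times. Over all tested probe sets 50% were above 0 at 36 h, 47.6% at 48 h and 46.6% at 72 h.

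**Figure D2:**
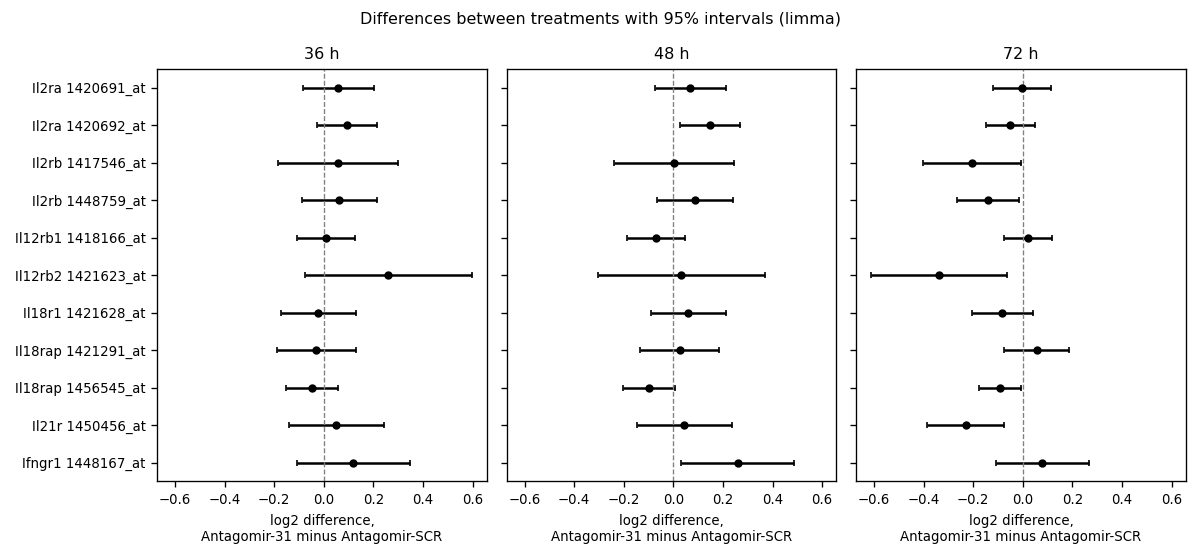
Log2 difference of Antagomir-31 minus Antagomir-SCR (x axis) of the 11 receptor probe sets (rows) at the 3 times, with 95% intervals of the limma fit. The intervals at 72 h lie wholly below 0 for Il2rb, Il12rb2, Il18rap 1456545_at and Il21r, with no adjusted p under 0.15.

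Of the IL-2 receptor, neither measured chain passed the test between treatments. Il2ra, the α chain that gives the receptor its high affinity, had intensities of 2392, 2298 and 2410 with Antagomir-31 at 72 h (replicates 2, 3 and 4, in this order throughout) and of 2344, 2422 and 2354 with Antagomir-SCR by probe set 1420691_at. The groups overlapped, with a log2 difference of -0.004 (SE 0.054, 95% interval -0.12 to 0.11). Its other probe set, 1420692_at, had 2758, 2737 and 2906 with Antagomir-31 and 2833, 2971 and 2891 with Antagomir-SCR (log2 difference -0.05, interval -0.15 to 0.05). At 48 h the same probe set had 1270 and 1237 with Antagomir-31 and 1098 and 1169 with Antagomir-SCR, without overlap, and its difference of 0.15 (SE 0.055) did not pass (adjusted p = 0.76). At 36 h it had 989 and 1035 with Antagomir-31 and 956.6 and 940.3 with Antagomir-SCR, a difference of 0.09 (SE 0.055). The first probe set had 1335 and 1363 for Antagomir-31 at 48 h, against 1191 and 1388 for Antagomir-SCR, and the groups overlapped. At 36 h it had 1572 and 1592 for Antagomir-31, against 1516 and 1523 for Antagomir-SCR, without overlap. The differences of both probe sets were above 0 at 36 h and 48 h. At 72 h that of 1420692_at was below 0. That of 1420691_at was too near 0 at 72 h to give a direction (-0.017 to 0.017 with 1 array left out). Its difference at 48 h ranged from -0.042 to 0.18 in the same way. None of these differences passed.

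Il2rb, the β chain that carries most of the signal of IL-2 and IL-15, had differences below 0 at 72 h on both probe sets, and neither passed. By 1448759_at it had 1079, 1077 and 1119 with Antagomir-31 and 1244, 1246 and 1125 with Antagomir-SCR. By 1417546_at it had 635.8, 499.5 and 671.6 with Antagomir-31 and 687.2, 675.1 and 704.7 with Antagomir-SCR, where replicate 3 of Antagomir-31 was far below the other 5 arrays. The groups did not overlap on either probe set, and the log2 differences were -0.14 (SE 0.057, adjusted p = 0.25) and -0.21 (SE 0.091, adjusted p = 0.29). Without replicate 3 of Antagomir-31 the second was -0.08 (adjusted p = 0.64). Groups that did not overlap were common at this time: 13.5% of all tested probe sets were lower with Antagomir-31 in this way and 9.39% higher, against 4 and 0 of the 11 receptor probe sets. At 48 h the differences of Il2rb were 0.09 (SE 0.070) and 0.001 (SE 0.111), and at 36 h 0.06 on each probe set (SE 0.070 and 0.111).

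Of the IL-12 receptor, neither chain passed the test, and the signalling chain had the largest difference of the 11 probe sets at 72 h. Il12rb2 had 235.1, 175.6 and 257.5 with Antagomir-31 and 308.2, 261.6 and 265.6 with Antagomir-SCR, which is a log2 difference of -0.34 (SE 0.126, 95% interval -0.61 to -0.06, adjusted p = 0.21). Only 1.53% of all tested probe sets had a larger absolute difference at this time. The 3 arrays of Antagomir-31 all lay below those of Antagomir-SCR, replicate 3 by far the lowest, and without it the difference was -0.18 (adjusted p = 0.50, range over the alternatives 0.097 to 0.50). At 36 h the order was the other way, with 193.2 and 154.6 for Antagomir-31 and 142.6 and 145.9 for Antagomir-SCR (log2 difference 0.26, SE 0.154, and 0.10 without replicate 1 or 0.42 without replicate 2 of Antagomir-31). At 48 h the groups overlapped, with 191.2 and 181.6 for Antagomir-31 and 176.8 and 187.8 for Antagomir-SCR. The difference between the effects at 72 h and 36 h was -0.60 (SE 0.199, interval -1.03 to -0.16). It was exceeded in absolute size by 0.373% of all probe sets and did not pass (adjusted p = 0.36).

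Il12rb1, the chain shared with the IL-23 receptor, had a difference near 0 at 72 h. It had 370.7, 378.2 and 378.0 with Antagomir-31 at 72 h and 368.1, 357.7 and 386.1 with Antagomir-SCR, a log2 difference of 0.02 (95% interval -0.08 to 0.12). At 48 h it had 390.3 and 377.1 with Antagomir-31 and 396.0 and 408.7 with Antagomir-SCR (difference -0.07, SE 0.054), and at 36 h 398.3 and 389.6 with Antagomir-31 and 381.2 and 402.1 with Antagomir-SCR (difference 0.01, SE 0.054). Over all 14 arrays the deposited intensity stayed between 357.7 and 408.7, but these values were not on one scale across times. After quantile normalisation the log2 difference from 48 h to 72 h was -0.385 (SE 0.033).

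Il21r, the chain that binds IL-21 and signals mainly through Stat3, had the smallest p of the receptors at 72 h. It had 364.2, 348.1 and 415.0 with Antagomir-31 and 414.0, 448.2 and 458.3 with Antagomir-SCR, so that 1 array of Antagomir-31 just exceeded the lowest of Antagomir-SCR. The log2 difference was -0.23 (SE 0.072, interval -0.39 to -0.08, unadjusted p = 0.0073, adjusted p = 0.15 by limma). Without replicate 4 of Antagomir-31, the array that overlapped, it was -0.31 and passed (adjusted p = 0.049, range over the alternatives 0.049 to 0.37). In that fit 406 probe sets, 1.8% of all, passed, against 65 with all arrays. At 48 h Il21r had 446.3 and 425.3 with Antagomir-31 and 397.1 and 449.4 with Antagomir-SCR, and at 36 h 385.4 and 366.2 with Antagomir-31 and 369.5 and 356.4 with Antagomir-SCR, with differences of 0.04 and 0.05 (SE 0.088 at both times).

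The chains of the IL-18 receptor did not pass the test either. Il18r1, the chain that binds IL-18, had 2304, 2362 and 2454 with Antagomir-31 at 72 h and 2412, 2416 and 2721 with Antagomir-SCR (log2 difference -0.08, SE 0.056, interval -0.21 to 0.04). Without replicate 4 of Antagomir-SCR, the highest of the 6 arrays, it was -0.03. Its differences were 0.06 at 48 h and -0.02 at 36 h (SE 0.069). The accessory chain Il18rap, by probe set 1456545_at, had 597.1, 604.8 and 585.4 with Antagomir-31 at 72 h and 644.9, 643.0 and 617.8 with Antagomir-SCR (difference -0.09, SE 0.039, adjusted p = 0.27). This probe set kept its groups apart at all 3 times, with Antagomir-31 lower. How many of all tested probe sets did so at every time was not computed. The shares lower in this way at a single time were 14.1% (36 h), 18.2% (48 h) and 13.5% (72 h). The probe set had 545.4 and 551.6 with Antagomir-31 against 587.0 and 587.1 with Antagomir-SCR at 48 h. Its values at 36 h were 524.1 and 514.1 with Antagomir-31 against 541.9 and 531.4 with Antagomir-SCR. Its average difference of -0.08 (SE 0.026) had the smallest p of the 11 probe sets (unadjusted p = 0.0098, adjusted p = 0.41), and 18.2% of all probe sets had a larger absolute average. The other probe set of Il18rap, 1421291_at, stood the other way at 72 h, with 427.9, 435.0 and 467.6 for Antagomir-31 and 457.5, 414.8 and 407.7 for Antagomir-SCR (difference 0.06, SE 0.060). The differences below 0 for Il18rap at 48 h and 72 h therefore rest on 1 of its 2 probe sets.

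Ifngr1, the ligand-binding chain of the IFN-γ receptor, had the largest average difference above 0 of the 11 probe sets, and it did not pass. At 48 h it had 534.7 and 495.3 with Antagomir-31 and 436.4 and 423.9 with Antagomir-SCR, a log2 difference of 0.26 (SE 0.105, interval 0.03 to 0.49, adjusted p = 0.78) that 2.94% of all probe sets exceeded in absolute size. At 36 h it had 417.6 and 413.4 with Antagomir-31 and 383.3 and 381.6 with Antagomir-SCR, again without overlap (difference 0.12, SE 0.105). Groups of 2 arrays with Antagomir-31 wholly above Antagomir-SCR were found for 14.9% of all probe sets at 36 h and 14.2% at 48 h, and for 4 and 3 of the 11 receptor probe sets. With Antagomir-31 wholly below, the shares were 14.1% at 36 h and 18.2% at 48 h, against 1 and 2 receptor probe sets. At 72 h the Ifngr1 groups overlapped, with 939.5, 1096 and 935.4 for Antagomir-31 and 835.9, 909.2 and 1075 for Antagomir-SCR (difference 0.08, SE 0.086). The average difference was 0.15 (SE 0.057, adjusted p = 0.48).

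The direct test of whether the effect at 72 h differed from the earlier ones passed for no receptor. The difference of effects was below 0 for 9 of the 11 probe sets against 36 h and for 8 against 48 h. The medians were -0.06 and -0.18 beside -0.01 over all probe sets in both. Over all tested probe sets 46.7% were above 0 against 36 h and 48.2% against 48 h. No probe set of the 22518 passed in either comparison (0%). At an unadjusted p under 0.05, limma gave 3 receptor probe sets against 36 h beside 10.2% of all, and 3 against 48 h beside 8.95%. The 6 are Il2rb 1448759_at, Il12rb2 and Il21r against 36 h, and Il2ra 1420692_at, Il2rb 1448759_at and Il21r against 48 h. Both comparisons use the same 72 h arrays.

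Some other measures differed between the treatments at 72 h. Arrays of Antagomir-31 had an upper quartile of 129.1 to 130.0, and those of Antagomir-SCR of 131.4 to 133.2, and quantile normalisation over the 14 arrays gave -0.32 for Il12rb2 in place of -0.34. For 5 T cell markers the summed intensity on Antagomir-31 arrays was 12270 to 12520, against 12700 to 13070 on Antagomir-SCR arrays. The sum of 5 Treg markers was 2542 to 2682 and 2727 to 2856 in the same order. Of these, Tnfrsf4 is also expressed by other activated T cells and Foxp3 lay below the filter. The sum of 5 macrophage and monocyte markers was 200.5 to 210.2 and 194.3 to 197.6. The sums of the Th1, B cell, dendritic cell, CD8 T and NK cell, Th2 and Th17 lists overlapped between the treatments at 72 h. Sums were apart at the earlier times as well. The Treg sum was lower with Antagomir-31 at 36 h (4766 to 4821 against 4822 to 5018) and 48 h (4657 to 4758 against 4764 to 4920). At 48 h the Th1 and B cell sums were lower with Antagomir-31 and the dendritic cell sum higher, without overlap. At 36 h the Th2 sum was higher, without overlap. A sum follows its brightest genes. By gene, 2 of 5 tested T cell, 2 of 3 Treg and 2 of 3 macrophage and monocyte markers were above 0 at 72 h. No gene of the 9 marker lists passed the test, and the part of these shifts in the receptor values was not tested. In such bulk samples, fewer cells of a type and less RNA per cell cannot be told apart. As a sign of RNA quality at 72 h, the actin controls had a log2 ratio of 3' over 5' signal. It was between 0.21 and 0.27 on Antagomir-31 arrays and between 0.21 and 0.24 on Antagomir-SCR arrays.

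Around the receptors, 6 lists of pathway genes held 54 tested genes, of which none passed in any treatment comparison, beside 0.289% of all probe sets at 72 h. Over all tested probe sets 46.6% were above 0 at 72 h. Of the Janus kinases and STAT factors, all 10 tested genes (of 11 listed) had a value below 0 at 72 h, with a median of -0.11 beside -0.01 over all probe sets. The smallest p among them was that of Jak3, the kinase of the common γ chain, with mean intensities of 172 in Antagomir-31 and 206 in Antagomir-SCR cells (log2 difference -0.26, SE 0.069, adjusted p = 0.10), followed by Stat6, the factor of the IL-4 receptor (488 and 546, difference -0.16, SE 0.056, adjusted p = 0.19). Of 9 feedback inhibitors 6 were above 0, and the smallest p was that of Socs1, which blocks Janus kinases and is itself induced by IFN-γ, at 340 in Antagomir-31 and 436 in Antagomir-SCR cells (difference -0.36, SE 0.072, adjusted p = 0.063). Socs5, of the same family, had 118 and 105 (difference 0.17, SE 0.064, adjusted p = 0.22).

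Of the 6 ligands tested (of 9 listed) 2 were above 0, with a median of -0.08. The list includes Il18bp, a binding protein of IL-18 and not a receptor ligand, which was above 0 (0.06, SE 0.069). Il21, the ligand of Il21r, had 42.6 with Antagomir-31 and 52.1 with Antagomir-SCR at 72 h (log2 difference -0.29, SE 0.066, adjusted p = 0.081), and Il18 had 167 and 182 (-0.13, SE 0.056, adjusted p = 0.29). Il21 had 87.2 and 111 in the same order at 36 h (-0.36, SE 0.081, adjusted p = 0.47) and 104 and 103 at 48 h (0.02). Of the 17 other cytokine receptors tested (of 24 listed) 9 were above 0, with a median of 0.04. Il10ra and Il10rb, the 2 chains of the IL-10 receptor, had the smallest p, with 44.7 and 187 with Antagomir-31 and 56.9 and 213 with Antagomir-SCR (differences -0.35, SE 0.073, and -0.19, SE 0.050, adjusted p = 0.067 and 0.11). Of 5 tested IL-18 receptor adaptors (of 7 listed) 2 were above 0. The kinase gene Irak2 had 168 with Antagomir-31 and 193 with Antagomir-SCR (-0.20, SE 0.064, adjusted p = 0.16), and the adaptor gene Myd88 had 756 and 727 (0.06, SE 0.054). Of 7 Th1 transcription factors 3 were above 0, with Tbx21 at 1750 and 1850 (-0.09, SE 0.048, adjusted p = 0.40) and Twist1 at 177 and 162 (0.13, SE 0.050, adjusted p = 0.23) in the same order. The lists were chosen with earlier results known, and their medians are descriptions.

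**Figure D3:**
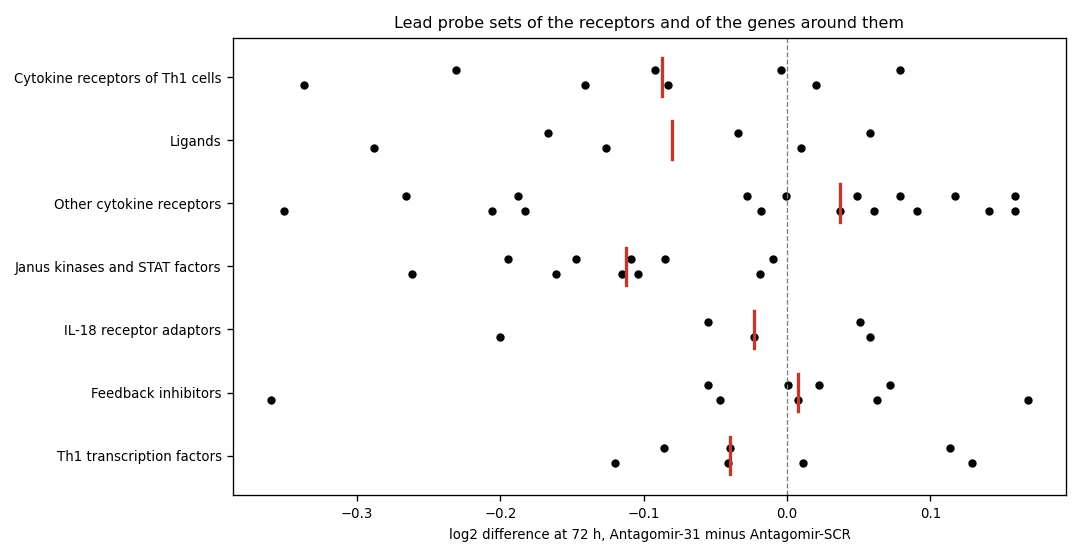
Log2 difference of Antagomir-31 minus Antagomir-SCR at 72 h (x axis) for the lead probe set of each tested gene (points, shifted up and down for sight), by list (rows). The red line is the median of the list. The 10 Janus kinases and STAT factors all lie below 0, and none of the points passed the test.

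The receptors differed from each other in their course over time. Between 48 h and 72 h, Il2ra, Il2rb, Il18r1 and Ifngr1 rose on each of their probe sets, while Il12rb1, Il21r and Il18rap 1456545_at fell on the scale used for this comparison, which is quantile normalised over the 14 arrays. There 9 of the 11 receptor probe sets passed the test, beside 74.6% of all probe sets, 6 higher beside 39.4% and 3 lower beside 35.2%. On the deposited values 9 passed as well beside 85.5% of all probe sets, all 9 of them higher beside 71.6%, and none lower beside 13.9%. By limma the same number, 9, had an unadjusted p under 0.05 beside 76.2% of all probe sets. After quantile normalisation the arrays of 72 h lay wholly above those of 48 h for 6 receptor probe sets, beside 32.1% of all, and wholly below for 3, beside 28.6%. The median of all probe sets between these times was 0.36 on the deposited values and 0.02 after quantile normalisation. Time cannot be told apart from the processing of each time by itself. The log2 ratio of 3' over 5' actin signal was also lower at 72 h (0.211 to 0.267) than at 48 h (0.37 to 0.41) or 36 h (0.324 to 0.427). Its part in the differences between times was not tested. Rises that held on both scales are those of Il2ra, Il2rb, Il18r1 and Ifngr1, 6 probe sets in all. Of these genes, Il2ra holds the NF-kB pattern and Il18r1 the pair of STAT patterns printed above, and the promoter of Ifngr1 holds none of the 4 patterns.

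Of the rises to 72 h, the largest was that of Il2rb 1417546_at. It had 218.4 to 244.6 over the 4 arrays of 48 h (group means of 231.3 for Antagomir-31 and 231.5 for Antagomir-SCR) and 499.5 to 704.7 over the 6 arrays of 72 h (602.3 for Antagomir-31 and 689.0 for Antagomir-SCR). The log2 difference after quantile normalisation was 1.17 (SE 0.071, adjusted p = 1.5e-08), and 4.29% of all probe sets had a larger absolute one. The other probe set of Il2rb rose by 0.28 (SE 0.045), with 48.9% of all probe sets further from 0, so the size of the rise depends on the probe set. Il2ra rose by 1.02 on 1420692_at (SE 0.035) and by 0.62 on 1420691_at (SE 0.042), with group means of 1254 at 48 h and 2800 at 72 h for the first and of 1349 and 2367 for the second with Antagomir-31. Il18r1 rose by 0.97 (SE 0.044, a fold of 1.95), with means of 1091 and 2373 with Antagomir-31 and of 1047 and 2517 with Antagomir-SCR at 48 h and 72 h. Ifngr1 rose by 0.77 (SE 0.067), with 515.0 and 990.4 with Antagomir-31 and 430.1 and 940.0 with Antagomir-SCR. On the deposited values these rises were 1.47, 0.53, 1.26, 0.85, 1.19 and 1.03 in the same order of probe sets.

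Of the receptors that did not rise on both scales, Il12rb1 fell by 0.39 (SE 0.033) and Il21r by 0.39 (SE 0.054) after quantile normalisation, against -0.08 each on the deposited values (adjusted p = 0.063 and 0.20). For Il21r the deposited means at 48 h and 72 h were 435.8 and 375.8 with Antagomir-31 and 423.2 and 440.2 with Antagomir-SCR. Il18rap 1456545_at changed its direction with the scale, at -0.16 (SE 0.031, adjusted p = 0.00045) after quantile normalisation and 0.12 (SE 0.031, adjusted p = 0.0034) on the deposited values. Il12rb2 and Il18rap 1421291_at did not pass after quantile normalisation (0.07, SE 0.096, and 0.04, SE 0.045) and passed as higher on the deposited values (0.42 and 0.35).

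**Figure D4:**
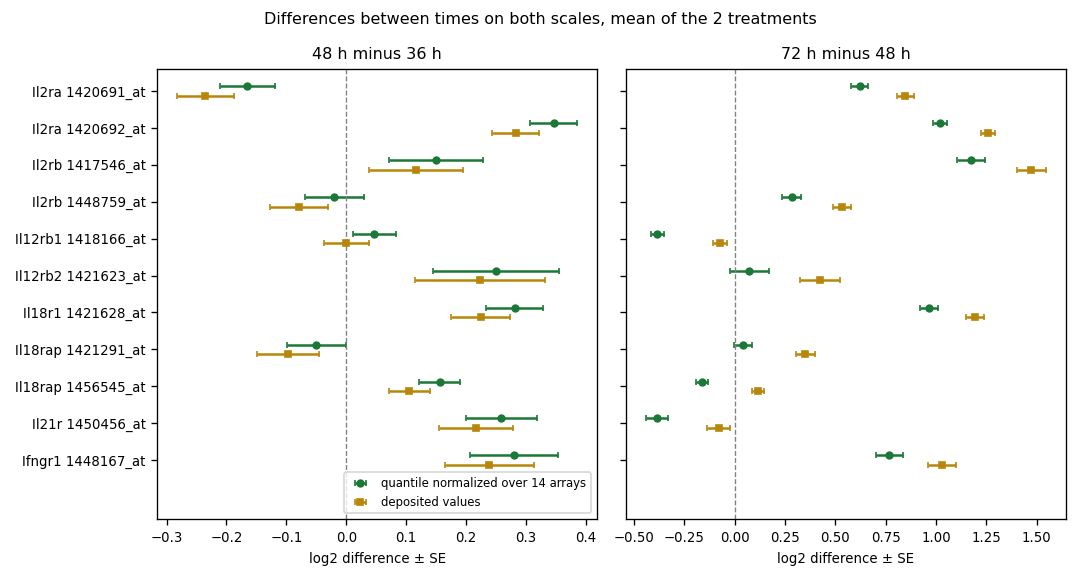
Log2 differences between times (x axis, ± SE) of the 11 receptor probe sets (rows), as the mean of both treatments, after quantile normalisation over the 14 arrays (green circles) and on the deposited values (gold squares). From 48 h to 72 h the gold squares lie to the right of the green circles throughout, and Il18rap 1456545_at lies on opposite sides of 0.

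Between 36 h and 48 h the steps of Il2ra, Il2rb, Il18r1 and Ifngr1 were smaller than between 48 h and 72 h, and that of Il12rb2 was larger (0.25 against 0.07). Of the 11 receptor probe sets 6 passed beside 42.6% of all, 5 of them higher beside 21.5% and 1 lower beside 21.1%. At an unadjusted p under 0.05, limma gave 7 beside 50.7%, and the arrays of 48 h lay wholly above those of 36 h for 6 receptor probe sets beside 20.1% of all and wholly below for 1 beside 19.5%. Ifngr1 (0.28, SE 0.074), Il18r1 (0.28, SE 0.048), Il21r (0.26, SE 0.059) and Il18rap 1456545_at (0.16, SE 0.034) rose. The same 6 probe sets passed in the same direction on the deposited values, where 46.5% of all probe sets passed, 15.5% higher and 31% lower. The 2 probe sets of Il2ra passed in opposite directions, 1420692_at with a rise of 0.35 (SE 0.039, 95% interval 0.26 to 0.43) and 1420691_at with a fall of 0.17 (SE 0.046, interval -0.27 to -0.07). Their intensities showed the same, with 989 and 1035 at 36 h and 1270 and 1237 at 48 h for the first with Antagomir-31, and 1572 and 1592 at 36 h and 1335 and 1363 at 48 h for the second. The direction of Il2ra between these times is therefore not settled by the array, whereas both probe sets rose between 48 h and 72 h. Without replicate 1 of Antagomir-SCR at 48 h the value of 1420691_at was -0.11 and no longer passed (adjusted p = 0.05). Il2rb, Il12rb1, Il12rb2 and Il18rap 1421291_at did not pass, and of these Il12rb2 (0.25, SE 0.105, adjusted p = 0.075) passed without replicate 1 of Antagomir-31 at 36 h (0.32, adjusted p = 0.046).

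The pathway genes around the receptors also differed by time, and for some the direction depended on the scale. The genes named are those with the smallest p between treatments at 72 h, and not those with the largest changes between times. From 48 h to 72 h, 39.4% of all probe sets were called higher and 35.2% lower after quantile normalisation, and 71.6% and 13.9% on the deposited values, and the counts of the lists are to be read beside these shares. Of 6 tested ligands, with Il18bp counted among them, 0 were called higher and 5 lower after quantile normalisation. On the deposited values 2 were called higher and 4 lower. Il21 fell on both scales (-1.50, SE 0.053, and -1.14 deposited), and Il18 turned with the scale (-0.20, SE 0.046, and 0.17 deposited, adjusted p = 0.0036). Of 10 Janus kinases and STAT factors 3 were called higher and 6 lower, and 5 and 3 on the deposited values. Jak3 rose on both (1.03, SE 0.053, and 1.40 deposited), and Stat6 turned (-0.16, SE 0.047, and 0.13 deposited, adjusted p = 0.017). Of 9 feedback inhibitors 5 were called higher and 4 lower (6 and 2 deposited), with Socs1 at 1.36 (SE 0.053, and 1.70 deposited) and Socs5 at 0.48 (SE 0.051, and 0.87 deposited). Of 7 Th1 transcription factors 4 were called higher and 3 lower (4 and 2 deposited), with Tbx21 at 0.60 (SE 0.037, and 0.85 deposited) and Twist1 at -0.90 (SE 0.039, and -0.54 deposited). Of 5 IL-18 receptor adaptors 2 were called higher and 3 lower (3 and 2 deposited), with Myd88 at 0.91 (SE 0.042, and 1.20 deposited) and Irak2 at 0.14 (SE 0.049, and 0.51 deposited). Of 17 other cytokine receptors 5 were called higher and 7 lower (12 and 3 deposited).

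Over the 14 arrays, after quantile normalisation, the lead probe sets of Il18r1 and Ifngr1 had a Pearson correlation of 0.97, those of Il2ra and Il18r1 of 0.90 and those of Il2ra and Il2rb of 0.89, while Il12rb1 ran against them (-0.97 with Il2ra). The arrays fall into 3 times, so these values describe the course over time. Both probe sets of Il2ra correlated at 0.89 and those of Il2rb at 0.90. The probe sets of Il18rap correlated at -0.42 after quantile normalisation and at 0.62 on the deposited values. Among 11415 other genes, the most similar to Il18r1 were Gbp2 (r = 0.999) and Tapbp (0.997), to Ifngr1 Enah (0.984) and Gbp6 (0.983), to Il2ra Ints9 (0.987) and Pmm2 (0.986), to Il2rb Aup1 and Gnai2 (0.965 each) and to Il12rb1 Ube2q2 and Myh10 (0.992 each). For Il21r they were Cdk2ap2 (0.942) and Erg28 (0.931), for Il18rap Tnnt1 (0.923) and Cd81 (0.918), and for Il12rb2 9330175E14Rik (0.878) and Wars2 (0.867). An r over 0.9 was reached by 1815 genes for Il18r1, 1421 for Ifngr1, 1326 for Il2ra and 1829 for Il12rb1, but by 161 for Il2rb, 15 for Il21r, 5 for Il18rap and 0 for Il12rb2. On the deposited values the r of Cd81 with Il18rap was 0.007 and that of Tnnt1 0.434. With Il12rb1, Ube2q2 had 0.798 and Myh10 0.787, and with Il21r, Cdk2ap2 had 0.863 and Erg28 0.687. The likenesses to Il18rap, Il12rb1 and Il21r therefore depend on the scale. The genes named for the other receptors kept an r of at least 0.913. Correlations between different receptors were not computed on the deposited values, where Il12rb1 differed by -0.075 (SE 0.035) from 48 h to 72 h.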

How the data were processed

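RNA of 14 samples was hybridised by the authors to Affymetrix Mouse 430_2 arrays, read with GCOS and normalised with RMA by the affy package for R, of unstated version. Deposited values are linear intensities, and 1 of the 14 columns has more decimals than the others. Of the 45101 probe sets 64 controls were left out, and 932 with several gene symbols and 9160 with none were tested but not named. The log2 values were fitted with limma 3.58.1 in R 4.3.3 (figures by Python 3.11.15 with matplotlib 3.10.9) for 6 groups of treatment and time, over the 50% of probe sets with the highest mean (22518, mean log2 of at least 4.63), with Benjamini-Hochberg adjustment over these and a threshold of 0.05. Treatments were compared on the deposited values, and times after quantile normalisation over the 14 arrays. The fit was run on simulated data with independent noise and with shifts larger than the receptor differences between treatments at any time. That run does not show how often differences of the size seen here would be missed. Precision is limited by the number of arrays.

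The members and gene lists were chosen with earlier results of these data known. Named are every member probe set, the lead probe set (highest mean) of list genes past the threshold in a treatment comparison or, where none passed, the 2 with the smallest p at 72 h, and the 2 genes most like each member, as well as markers that bear on the cell type. Alternatives were no filter, a mean log2 of at least 6, a trended prior, other scalings, only the groups compared, a replicate block, the highest probe set per gene and leaving out each array. MAS5 calls and RNA sequencing were not used here.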

Additional observations from a re-analysis of the deposited data

How the results depend on the processing

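The count of receptor probe sets past the threshold was 0 at 36 h, at 48 h, on the average and in both differences of effects under each alternative, and at 72 h it was 0 to 1 when 1 array was left out (Il21r, without replicate 4 of Antagomir-31) and 0 otherwise. With a replicate block it was 0 in all 6 treatment comparisons. Deviations of same-numbered arrays of the treatments had an r of -0.154 to 0.133, against -0.098 to 0.154 for others. In groups of 2 arrays these values mirror each other by construction (0.098 and -0.098 at 36 h, -0.154 and 0.154 at 48 h). They therefore cannot decide whether equal numbers are pairs at these times. The numbers were not taken as pairs in the fit reported. The crossed pairing at 48 h, added after seeing the data, gave 0. Over all probe sets the calls at 72 h were 65 in the fit reported, 8 with the replicate block and 3 to 580 over the alternatives. The counts between times were 5 to 8 from 36 h to 48 h, where 35.5% to 46.5% of all features passed. They were 7 to 9 from 48 h to 72 h, where 64.8% to 85.5% passed. In these ranges the alternative with the highest probe set per gene counts 8 genes, and the others count 11 probe sets. The lists between times were set on the deposited values after seeing the data.

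Of 1384 alternative values of single probe sets, 1324 kept direction and side of the threshold and 48 changed sign, of which 47 never passed. The exception was Il18rap 1456545_at from 48 h to 72 h, at 0.116 on the deposited values. Quantile normalisation turned Il2ra 1420691_at at 72 h (0.01) and Il2rb 1417546_at at 48 h (-0.005). Median centring turned Il2rb 1448759_at on the average (-0.001) and from 36 h to 48 h (0.028), Il12rb1 in the effect at 72 h minus 36 h (-0.002), Il18rap 1456545_at in that of 72 h minus 48 h (-0.013), and Il18rap 1421291_at from 36 h to 48 h (0.011) and from 48 h to 72 h (-0.011). Leaving out 1 array gave ranges across 0. At 36 h these were -0.03 to 0.047 for Il12rb1 and -0.056 to 0.012 for Il18r1. At 48 h they were -0.042 to 0.18 for Il2ra 1420691_at, -0.081 to 0.083 for Il2rb 1417546_at, -0.011 to 0.076 for Il12rb2, -0.053 to 0.105 for Il18rap 1421291_at and -0.045 to 0.134 for Il21r. At 72 h they were -0.017 to 0.017 for Il2ra 1420691_at, -0.005 to 0.05 for Il12rb1 and -0.001 to 0.18 for Ifngr1. On the average they were -0.023 to 0.03 for Il2rb 1448759_at, -0.068 to 0.039 for Il12rb2, -0.034 to 0.005 for Il18r1 and -0.009 to 0.044 for Il18rap 1421291_at. For the effect at 72 h minus 36 h they were -0.027 to 0.05 for Il12rb1 and -0.121 to 0.061 for Ifngr1, and minus 48 h -0.184 to 0.037 for Il2ra 1420691_at and -0.014 to 0.018 and -0.048 to 0.11 for Il18rap 1456545_at and 1421291_at. From 36 h to 48 h Il2rb 1448759_at ranged from -0.057 to 0.018. The causes were not tested.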
